A study of Homo sapiens with 19 samples.

Results

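Retinoids, the vitamin A compounds, were followed here through 9 genes of their transport and metabolism: the carriers RBP4, TTR and RBP2, the esterifying enzyme LRAT, the membrane receptor STRA6, the reductases and dehydrogenases DHRS3, DHRS9 and RDH10, and the retinal dehydrogenase ALDH1A1. The genes were listed by function, matched by Ensembl identifier, and are 9 of the 32703 gene identifiers that every deposited matrix holds. They were measured in human liver organoids grown from W01, an established and unedited human pluripotent stem cell line, by droplet single-cell RNA sequencing that tags the 3′ end of each transcript and counts unique molecular identifiers (UMIs). The 19 libraries form 9 groups. Organoids in ultra-low attachment (ULA) plates were taken on day 21 (n = 3) and day 34 (n = 2). Organoids on an orbital shaker were taken on day 25 in groups of 2 libraries: untreated, transforming growth factor β1 (TGFB1, 10 ng/ml) and its control, PA (500 µM) and its control, and OA (500 µM) and its control. The treatment lasted 5 days after 20 days of culture for TGFB1 and PA. What PA and OA stand for is not written out in the labels, and OA is named in the sample titles only. All groups come from the same line, so nothing here samples variation between donors, and the labels do not state that replicates were separate cultures. The p-values therefore measure the spread between these libraries, which may be technical.

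In the body, retinol is stored mainly in the liver as retinyl ester, made by LRAT, and leaves hepatocytes bound to RBP4, which circulates in a complex with TTR. Target cells can take it up through STRA6, bind it inside the cell, and oxidise it first to retinal and then to retinoic acid, which acts through nuclear receptors. In adult liver the ester stores and LRAT are best known from stellate cells, RBP4 and TTR from hepatocytes, and RBP2 from absorptive cells of the small intestine.

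Libraries held 7476533 to 92522222 UMIs, and the median kept cell held 1310 to 14304.5. Cells were kept if 500 or more genes were detected and mitochondrial genes gave no more than 20% of the UMIs. Levels below are counts-per-million (CPM): the UMIs of a gene, summed over the kept cells of a library, scaled to the library's UMIs of the shared genes. A change was called when the edgeR quasi-likelihood test over all genes gave a Benjamini-Hochberg adjusted p under 0.05. No pair of libraries shared more than 32 cell barcodes, or more than 0.581% of the cells of its smaller library. ALB, a defining hepatocyte gene, stood at 0.04 to 88.8 CPM in the 17 libraries not treated with OA and at 687 and 301 with OA, and AFP, an albumin relative of fetal liver, at 2.96 to 5871 over all 19. The intestinal factor CDX2 stood at 0.20 to 77.5 over all 19.

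**Figure D1:**
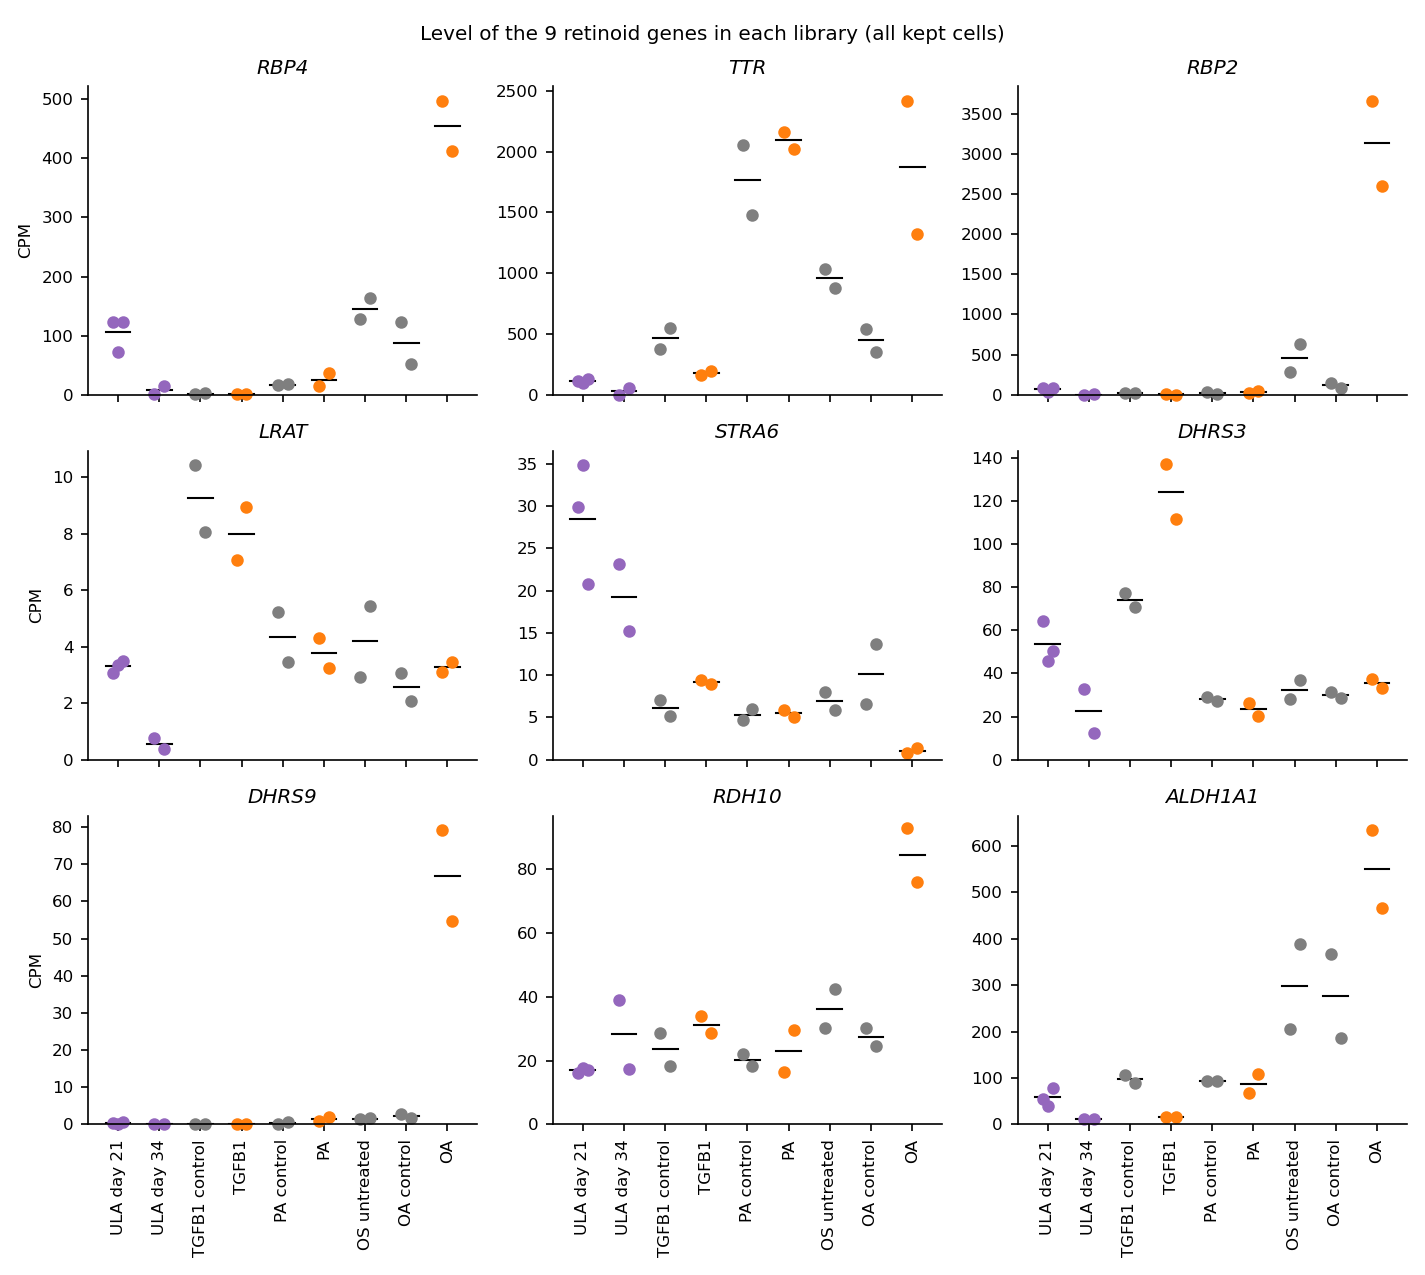
Level of each of the 9 genes (CPM, vertical axis, one scale per panel) in each library, by group along the horizontal axis; each point is a library and the black bar is the group mean. Purple marks ULA organoids, orange the treated and gray the control and untreated shaker organoids (OS, orbital shaker). RBP2, DHRS9 and RDH10 are highest in the OA libraries, STRA6 in the ULA libraries, and DHRS3 in the TGFB1 libraries.

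With OA, 7 of the 9 genes rose and STRA6 fell. In that comparison 43.3% of all 19361 tested genes were called, so 8 of 9 is to be read against that share. The median log2 change over the 9 genes was 1.95 and over all tested genes -0.08. With TGFB1, 3 of the 9 were called (DHRS3 up, ALDH1A1 and TTR down), against 22.2% of all genes, and the medians were -0.60 and -0.05. That median of the 9 includes DHRS9, whose counts allow no fold in this experiment. With only the 2 groups in the fit, 8 genes were tested and their median was -0.28. The median ran from -0.999 without TGFB1 control replicate 1 to 0.21 without TGFB1 control replicate 2. It was 0.07 without the 5% of cells with the most UMIs and -0.79 under a stricter cell filter (given below). With PA, 0 of 9 were called, against 0.0465% of all genes. At an unadjusted p under 0.05 edgeR marked 1 of the 9 there, and 540 of all 19361 genes. DESeq2 called 0 of the 9. Apart from DHRS9, the PA changes ran from -0.22 (DHRS3) to 0.63 (RBP2). Between the OA control and untreated shaker organoids 0 of 9 were called (0.573% of all genes), and 0 by DESeq2, with changes of -1.79 (RBP2) to 0.68 (DHRS9). There edgeR marked 3 of the 9 at an unadjusted p under 0.05, and 2819 of all 19361 genes. From day 21 to day 34 in ULA plates 3 of 9 were called, all lower (ALDH1A1, LRAT and RBP4), against 17.5% of 18763 genes, with medians of -2.13 over the 9 and 0.02 over all. The OA and the OA control comparisons share the OA control libraries.

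**Figure D2:**
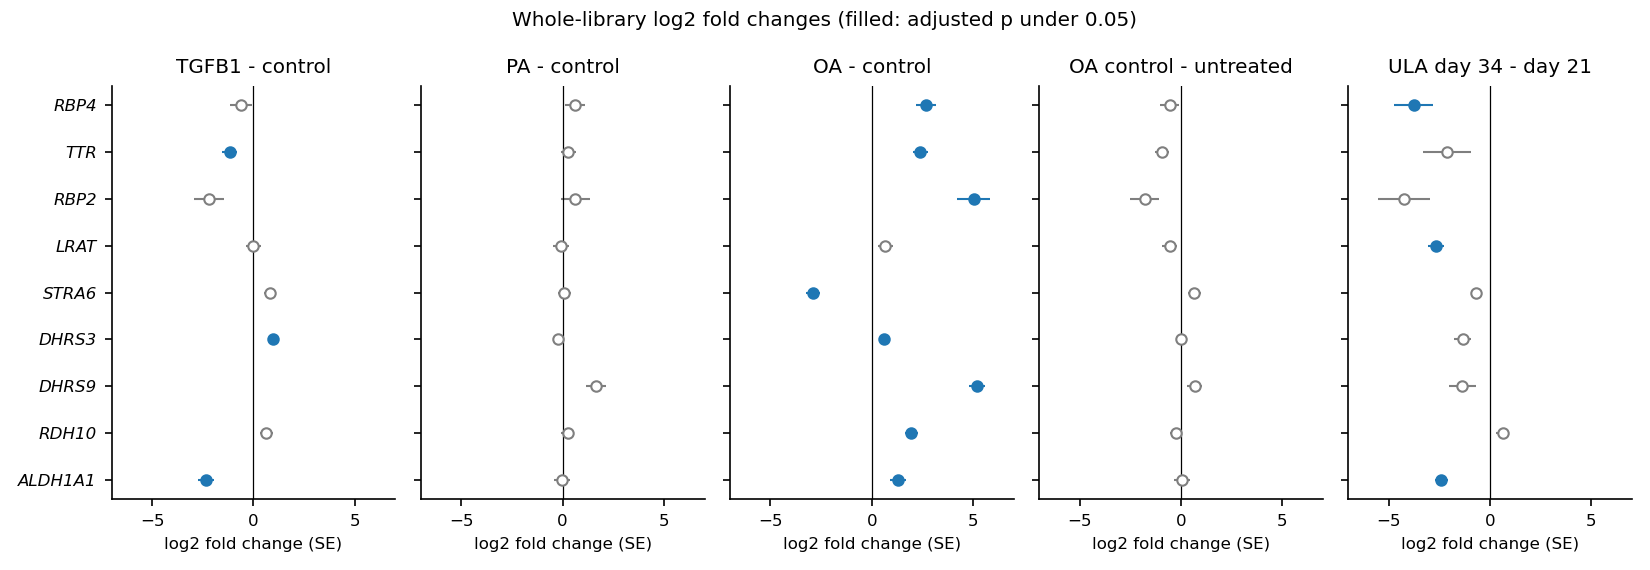
Log2 fold change (horizontal axis, with its standard error as the bar) of each gene in the 5 comparisons of whole libraries. Filled points have an adjusted p under 0.05 in edgeR, and DHRS9 is left out for TGFB1, where it had 1 UMI in each treated library. OA carries 7 filled points above 0 and 1 below, and PA carries 0.

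The makeup of the organoids differed with OA, with TGFB1 and with the day of culture. Cells were split into EPCAM-positive cells (an epithelial marker; 1 or more EPCAM UMIs and 0 of COL1A2 and COL3A1) and COL1A2/COL3A1-positive cells (collagens of mesenchymal cells; the reverse). EPCAM-positive cells made up 88.4% of kept cells in both OA libraries, against 32.4% and 23.1% in the OA control, and COL1A2/COL3A1-positive cells made up 1.94% and 1.18% against 35.3% and 37.5%. The marker counts below are to be read against the share of all tested genes called in each comparison. That share was 43.3% with OA, 22.2% with TGFB1, 0.0465% with PA and 17.5% over the ULA days. Counts near it do not set a list apart. With OA, 10 of 12 gut epithelial markers and 7 of 11 tested hepatocyte markers rose, while 11 of 11 stellate and 9 of 9 mesenchymal markers fell. The smaller lists with OA gave 3 of 8 ductal markers up, 1 of 4 tested endothelial markers up and 3 down, 1 of 2 macrophage markers up, 1 of 5 retinal pigment epithelial markers up and 3 down, and 1 of 5 choroid plexus markers in each direction. All 8 cell cycle markers fell. With TGFB1, 6 of 11 hepatocyte markers fell and 1 rose, 4 of 12 gut markers fell and 4 of 9 mesenchymal markers rose. The summed hepatocyte list was nevertheless higher with TGFB1 (4404 to 5267 CPM against 2385 to 3472), carried by SERPINA1, a plasma protease inhibitor, at 4995 and 4131 CPM against 1534 and 2658. The EPCAM-positive shares with TGFB1, 68.3% and 77.6%, lay between those of the control, 48.8% and 85.9%. COL1A2/COL3A1-positive cells made up 8.55% and 9.56% with TGFB1 against 4.57% and 3.92%, and cells positive for both markers 15.8% and 8.65% against 1.93% and 5.24%, both without overlap. Of the cell cycle markers 7 of 8 fell, and of the stellate markers 2 of 11 rose and 1 fell. Ductal markers gave 2 of 8 up and 1 down, retinal pigment epithelial markers 2 of 5 up and 1 down, macrophage markers 1 of 2 up, and endothelial and choroid plexus markers 0 calls. With PA 0 of 75 tested markers were called, and the EPCAM-positive shares were 67.1% and 73.2% against 56.5% and 66.5%. From ULA day 21 to day 34 the EPCAM-positive share, which leaves out cells with a collagen UMI, went from 18.3%, 11.7% and 18.8% to 0.532% and 6.01%. Cells positive for both markers went from 42.5%, 29.8% and 36.8% to 49.6% and 59.7%. The first share alone therefore does not show a loss of cells with EPCAM. The summed ductal list was 1717 to 2484 CPM on day 21 and 2813 to 4136 on day 34. Of the markers, 7 of 11 hepatocyte, 8 of 12 gut and 6 of 8 cell cycle markers fell over these days. Over the same days 2 of 11 stellate markers rose and 1 fell, 1 of 8 ductal markers went each way, 1 of 5 endothelial and 1 of 5 choroid plexus markers fell, and 0 of 9 mesenchymal, 2 macrophage and 5 retinal pigment epithelial markers were called. The part of the cells behind these lists in the values below was not tested. In a summed library, fewer cells of a type and less RNA per cell cannot be told apart, so each gene was also measured within each kind of cell. A kind of cell can itself hold more than 1 type, so the same limit holds within it. In the EPCAM-positive cells of shaker libraries the summed gut list ran from 192 to 8876 CPM. The part of such shifts in the values within a kind, those with OA among them, was not tested.

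Between the kinds of cell, 6 of the 8 tested genes were called over 13 shaker libraries, where 62.7% of all 14044 tested genes were. DHRS9, low outside the OA libraries, did not pass the filter on low counts in the shaker fit. Over 4 ULA libraries 8 of 9 were called, against 57.4% of 15417 genes. Among these, DHRS9 and LRAT passed the filter on low counts only through the EPCAM-positive cells, where they are higher. OA replicate 2 with 38 COL1A2/COL3A1-positive cells and ULA day 34 replicate 1 with 23 EPCAM-positive cells fell short of the minimum of 50 and are not in these fits. Cells positive for both markers, 29.8% to 59.7% of kept cells in ULA and 1.93% to 32.0% in shaker libraries, were left out. Whether they are doublets was not tested. Cells positive for neither, 0.301% to 7.53% in ULA and 4.01% to 44.7% in shaker libraries, were left out as well. TGFB1 control replicate 1 had the most, 44.7% against 4.91% in replicate 2, with a median of 1310 UMIs per cell against 5635. PA control replicate 1 had 33.9% against 10.1% (median 1747 against 7058), and PA replicate 1 24.1% against 7.29% (2549 against 5990). In TGFB1 control replicate 1 these cells held 37.5% of the TTR and 38.1% of the ALDH1A1 UMIs, and in PA control replicate 1 19.7% and 24.7%. PA control replicate 1 also held the fewest UMIs, 7476533. The part of depth in the 0 calls with PA was not tested.

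**Figure D3:**
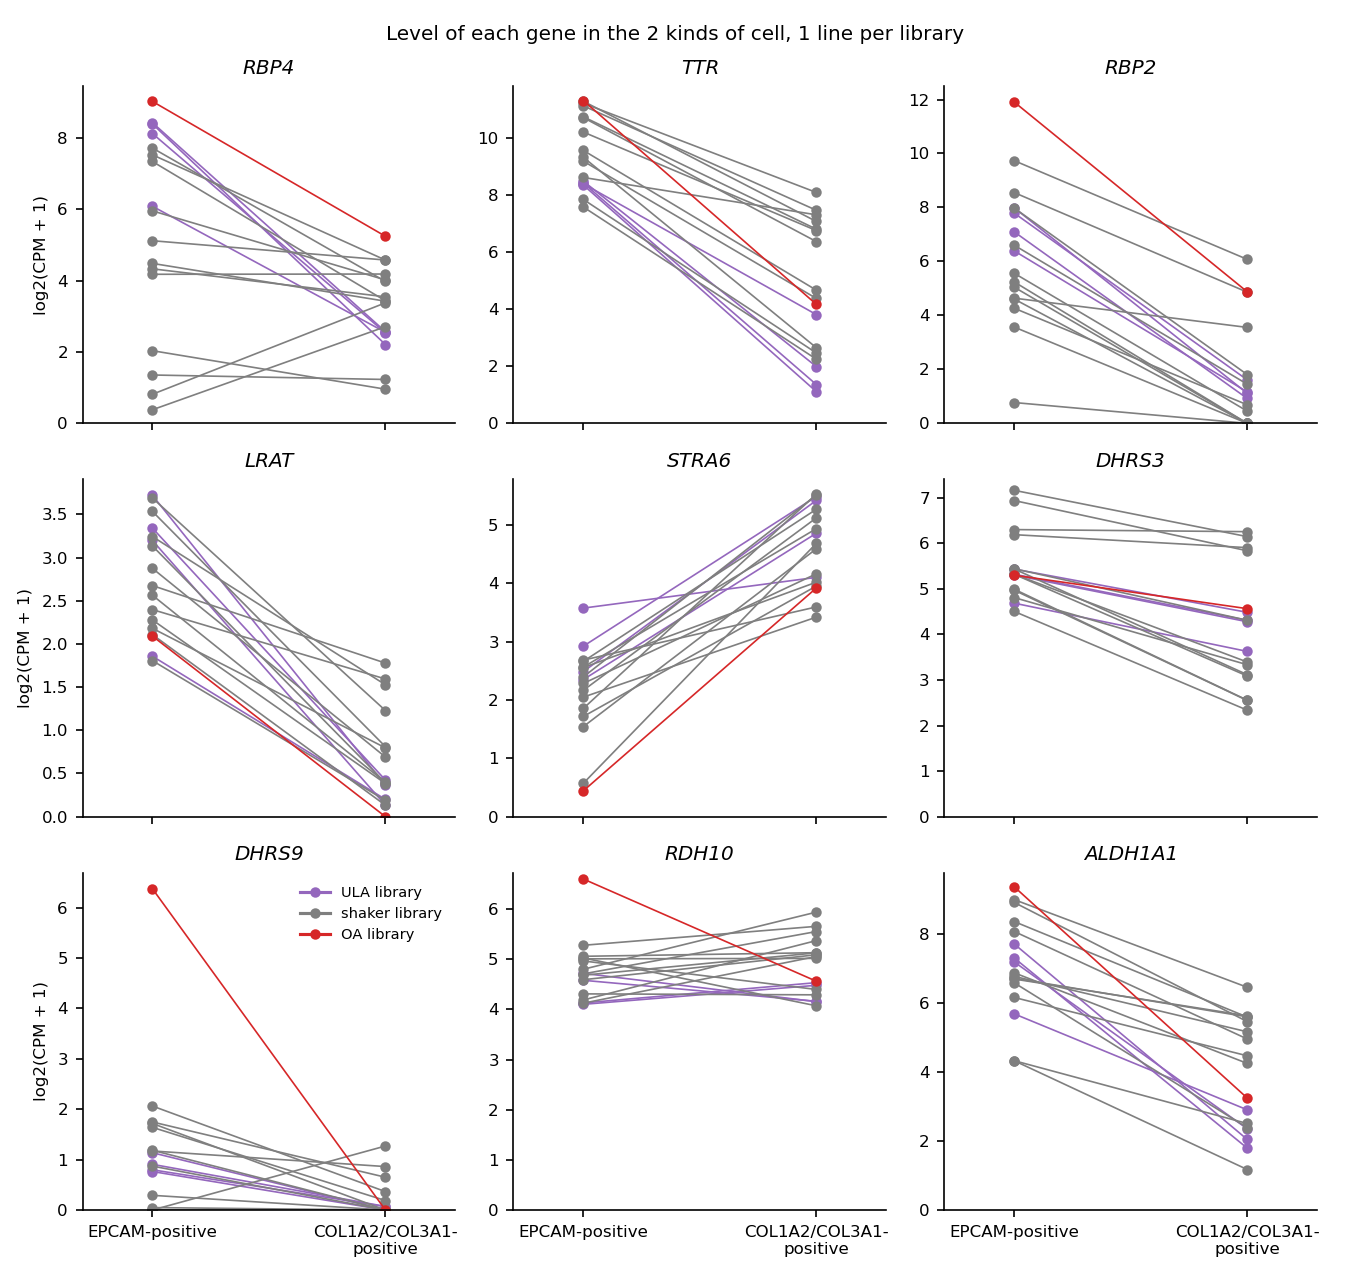
Level of each gene on a log2(CPM + 1) scale (vertical axis) in EPCAM-positive and COL1A2/COL3A1-positive cells (horizontal axis); each line joins the 2 kinds of cell of 1 of 17 libraries, purple for ULA, gray for shaker and red for OA replicate 1. Lines fall from left to right for TTR, RBP2, LRAT, DHRS3 and ALDH1A1, rise for STRA6, and run both ways for RDH10.

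The kinds of cell are set by EPCAM and collagen UMIs, so a treatment that changes these genes can change which cells qualify. The mesenchymal list, which holds both collagens, summed to 6386 to 6873 CPM with TGFB1 against 1209 to 1932 in its control. The part of this in the values within kinds of cell was not tested. Within EPCAM-positive cells, TGFB1 changed 4 of the 9 genes (25% of all 17524 tested genes) and OA changed 6 (35.9%). PA changed 0 (0.103%), with 1 of 9 at an unadjusted p under 0.05, where 435 of the 17524 genes were. The OA control and untreated libraries differed in 0 (1.29%), with 3 of 9 at an unadjusted p under 0.05, where 3053 of the 17524 genes were. Within COL1A2/COL3A1-positive cells 7 of the 9 were tested. TGFB1 changed 0 of them (0.0211% of all 14186 tested genes) and PA 0 (0%). At an unadjusted p under 0.05 TGFB1 changed 4, and 1897 of all genes, and PA 2, and 580 of all genes. Between the OA control and untreated organoids 1 differed (0.0352%), and between ULA day 34 and day 21 2 differed (19.4%). The effect itself differed between the kinds of cell for 3 of 9 genes with TGFB1 (6.3% of 18744) and 0 of 9 with PA (0.0107%). It differed for 1 of 9 between the OA control and untreated organoids (0.16%). With PA 1 of 9 passed an unadjusted p under 0.05, as did 688 of all 18744 genes. For OA and the ULA days that difference could be fitted only when each cell was assigned to the marker with more UMIs, an assignment chosen after the data were seen. It then differed for 5 of 9 genes with OA (18.6%) and 3 of 9 between the ULA days (11.6%). With that assignment the ULA days could also be compared within EPCAM-positive cells, where 4 of the 9 genes were called, all lower on day 34 (15.2% of all 15917 genes). These were RBP4 (-3.18, adjusted p = 0.00313), RBP2 (-2.93, 0.022), LRAT (-2.78, 0.00355) and ALDH1A1 (-2.32, 0.00432), while TTR was not called (-1.38, 0.148). Among the cells positive for EPCAM alone, ULA day 34 replicate 2 held 66.7 CPM of RBP4 against 277 to 342 on day 21, and 335 of TTR against 325 to 357.

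RBP4 (chr10:93591687-93601744, minus strand, in GENCODE v44 on GRCh38), the plasma carrier of retinol, stood at 498 and 413 CPM in the OA libraries and at 124 and 52.4 in the OA control. Untreated shaker organoids held 128 and 164, ULA day 21 122, 71.9 and 123, and the PA libraries and their control 14.9 to 36.2. It was lowest in the TGFB1 experiment, at 1.46 and 2.91 in the control and 1.64 and 1.07 with TGFB1, and all 4 of these lay below every other shaker library (-0.60 ± 0.55, adjusted p = 0.458; 0.21 without TGFB1 control replicate 2). The rise with OA was 2.68 ± 0.49 (log2 ± SE, adjusted p = 0.000799). The share of cells positive for EPCAM alone was lower on ULA day 34, and its part in the next values was not tested. From ULA day 21 to day 34, with 1.28 and 15.7 at the later day, RBP4 fell by 3.76 ± 0.95 (adjusted p = 0.0377). The 2 day 34 libraries lie far apart: the log2 change was -2.88 without ULA day 34 replicate 1 and -6.49 without replicate 2, and leaving out any of the 3 day 21 libraries ended the call (adjusted p of 0.0814 to 0.125). So did a stricter cell filter (1000 or more genes, no more than 10% mitochondrial UMIs), leaving out the 5% of cells with the most UMIs, and a replicate block.

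Within EPCAM-positive cells RBP4 held 518 and 425 CPM with OA against 161 and 60.9 in the control, a rise of 2.28 (adjusted p = 0.00232). The rise ran from 1.71 to 3.31 without each library in turn. With TGFB1 the EPCAM-positive cells held 0.76 and 0.30 against 1.56 and 3.10, and RBP4 fell by 2.08 (adjusted p = 0.0281). These levels rest on 24 and 9 UMIs against 14 and 142, and the call was lost without TGFB1 control replicate 2 (-1.21, adjusted p = 0.379) or without either TGFB1 library. In COL1A2/COL3A1-positive cells the values ran the other way, 9.38 and 5.53 with TGFB1 against 1.34 and 0.94, from 30 and 22 UMIs against 1 and 2. The effect of TGFB1 on RBP4 thus differed between the kinds of cell by -5.21 ± 1.12 (EPCAM minus collagen, adjusted p = 0.00411), a call lost without TGFB1 control replicate 2 (-4.23, adjusted p = 0.285). Over the shaker libraries EPCAM-positive cells had 0.30 to 518 CPM and COL1A2/COL3A1-positive cells 0.94 to 36.8, higher in the former in 10 of 13 libraries (1.61 ± 0.70, adjusted p = 0.0565, not called; DESeq2 called it). In ULA organoids the gap was 5.81 ± 0.57 (adjusted p = 0.00114), with 66.7 to 342 against 3.62 to 4.93.

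TTR (chr18:31557009-31598833, plus strand), the carrier of thyroxine and partner of RBP4 in plasma, was highest in the PA experiment, with 2160 and 2026 CPM with PA and 2053 and 1480 in its control, and in the OA libraries (2419 and 1325). The OA control held 545 and 353, untreated organoids 1037 and 881, the TGFB1 control 381 and 547, and the TGFB1 libraries 165 and 197. ULA organoids held 115, 97.2 and 128 on day 21 and 1.15 and 55.7 on day 34. TTR and RBP4 thus had different orders over the groups: in the PA control TTR was at the third highest of its 9 group means and RBP4 at the sixth. TTR rose with OA by 2.39 ± 0.38 (adjusted p = 0.000256) and fell by 1.18 ± 0.36 with TGFB1 (adjusted p = 0.0338), where the groups did not overlap. The TGFB1 call was lost without TGFB1 control replicate 2 (-0.76), TGFB1 replicate 1 or TGFB1 replicate 2, and under the stricter cell filter (adjusted p = 0.0594). From ULA day 21 to day 34 the change of -2.13 ± 1.20 was not called (adjusted p = 0.252). It was called at -1.16 (adjusted p = 0.00342) without ULA day 34 replicate 1 and at -6.75 (adjusted p = 4.75e-08) without replicate 2.

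TTR was higher in EPCAM-positive than in COL1A2/COL3A1-positive cells in 13 of 13 shaker libraries (190 to 2537 against 3.75 to 271 CPM, 4.46 ± 0.41, adjusted p = 8.6e-08) and in 4 of 4 ULA libraries (325 to 357 against 1.16 to 13.0, 6.96 ± 0.74, adjusted p = 0.00142). The size depends on how cells are split: with cells assigned to the marker with more UMIs the gaps were 2.91 and 4.46. Within EPCAM-positive cells TTR rose with OA by 1.72 (1367 and 2537 against 639 and 755, adjusted p = 0.00248) and fell by 1.04 with TGFB1 (190 and 229 against 391 and 581, adjusted p = 0.0471). The latter was lost without TGFB1 control replicate 2 (-0.58, adjusted p = 0.266), or either TGFB1 library. In COL1A2/COL3A1-positive cells the TGFB1 libraries held 3.75 and 4.52 against 157 and 19.8 in the control, and the effect differed between the kinds of cell by 2.60 ± 0.78 (adjusted p = 0.0477). That difference was 0.78 (adjusted p = 0.669) without TGFB1 control replicate 1, 4.11 without replicate 2, no longer called without TGFB1 replicate 1 (adjusted p = 0.182) or replicate 2 (0.212), and 0.41 (adjusted p = 0.685) with cells assigned to the marker with more UMIs.

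RBP2 (chr3:139452884-139480747, minus strand), the cellular retinol-binding protein of the gut, had its highest group mean with OA and its lowest on ULA day 34. It stood at 3661 and 2598 CPM with OA and at 153 and 87.2 in the OA control. Untreated organoids held 279 and 639, ULA day 21 84.2, 33.4 and 87.4, and ULA day 34 0.15 and 7.67. In the other shaker groups it ranged from 1.10 in TGFB1 replicate 2 to 43.0 in PA replicate 2. The rise with OA was 5.02 ± 0.83 (adjusted p = 0.000368), with no overlap of the groups. With TGFB1 the levels were 7.79 and 1.10 against 17.5 and 28.5, and the change of -2.20 ± 0.75 was not called (adjusted p = 0.0528). It was called without TGFB1 replicate 1 (-4.23, adjusted p = 0.00962), by DESeq2 (-2.19, 0.0455), with scaling to total UMIs (-2.37, 0.0227), with the stricter cell filter (-2.29, 0.0492) and without the filter on low counts (-2.18, 2.42e-11). The changes of -4.25 ± 1.29 over the ULA days (adjusted p = 0.0634) and -1.79 ± 0.72 between the OA control and untreated organoids (adjusted p = 0.285; 8.26e-07 without the filter on low counts) were not called either. The ULA change was called without either day 34 library (-3.29 without replicate 1 and -8.98 without replicate 2), by DESeq2 (adjusted p = 0.0299) and without the filter on low counts (0.0197).

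The OA values of RBP2 were nearly the same within EPCAM-positive cells, 3835 and 2669 against 251 and 96.0 CPM in the control (4.43, adjusted p = 0.00226). With each cell thinned to 1000 UMIs, 50.2% (exact 95% binomial interval 48.3% to 52.1%) and 35.7% (33.9% to 37.5%) of EPCAM-positive cells held an RBP2 UMI with OA, against 5.18% and 2.54% in the control. COL1A2/COL3A1-positive cells of the same OA libraries gave 1.82% of 55 cells and 2.78% of 36. Over 18 libraries such cells gave 0% to 7.26%, and whether these UMIs are background was not tested. Intervals cover counting error only. RBP2 was higher in EPCAM-positive cells in 13 of 13 shaker libraries (5.19 ± 0.47, adjusted p = 7.61e-08) and in 4 of 4 ULA libraries (7.15 ± 0.34, adjusted p = 0.000237). The shaker gap was 3.33 with cells assigned to the marker with more UMIs. In COL1A2/COL3A1-positive cells RBP2 was lower in the OA control (2.50 and 1.73) than in untreated organoids (28.1 and 66.5), by a log2 change of -4.27 (adjusted p = 0.0189). The effect differed from that in EPCAM-positive cells (251 and 96.0 against 374 and 850) by 2.50 ± 0.39 (adjusted p = 0.00783). The first call was lost without untreated replicate 2 or either OA control library, and both were lost with cells assigned to the marker with more UMIs (-2.70, adjusted p = 0.299, and 1.27, adjusted p = 0.88).

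Among EPCAM-positive cells, those with an RBP2 UMI were compared with those without one in 13 libraries that had enough of both. The summed gut epithelial markers were higher in cells with RBP2 in 13 of 13 libraries (median ratio 4.23), the hepatocyte markers in 9 of 13 (1.25), a sum of which SERPINA1 made up 20.7% to 94.8% in whole libraries, and the mesenchymal markers in 0 of 13 (0.36). The sum of the macrophage list was also higher in 13 of 13 (4.68), but of its 6 genes CD68, which encodes a lysosomal protein, held nearly all the UMIs: in the whole OA libraries CD68 stood at 82.3 and 70.8 CPM, PTPRC and CD14 at 0. The endothelial list was higher in 13 of 13 (2.84) at a low level, 2.08 against 0.84 CPM. The choroid plexus list was higher in 11 of 13 (1.26), close to the hepatocyte ratio, and the ductal list in 9 of 13 (1.08). The stellate list was higher in 2 of 13 (0.46), the retinal pigment epithelial in 1 (0.40) and the cell cycle list in 1 (0.67). In the same cells RBP4 was 5.86 times, TTR 3.23 times and ALDH1A1 2.01 times as high. RBP4 gave a similar picture, with gut markers higher in 14 of 14 libraries (4.23) and hepatocyte markers in 10 of 14 (1.32). Cells with a TTR UMI had higher gut markers in 17 of 18 libraries (1.82) and higher hepatocyte markers in 16 of 18 (1.35). The choroid plexus list was higher in 17 of 18 (1.43) and the macrophage list in 15 of 18 (1.29). The stellate and ductal lists were higher in 11 of 18 (1.13 and 1.04), the retinal pigment epithelial in 10 (1.06) and the endothelial in 9 (0.90). The mesenchymal and cell cycle lists were higher in 5 of 18 (0.72 and 0.84). Cells with an RBP2 UMI were deeper, with a median of 14242 UMIs against 6672, and the part of depth in these ratios was not tested.

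**Figure D4:**
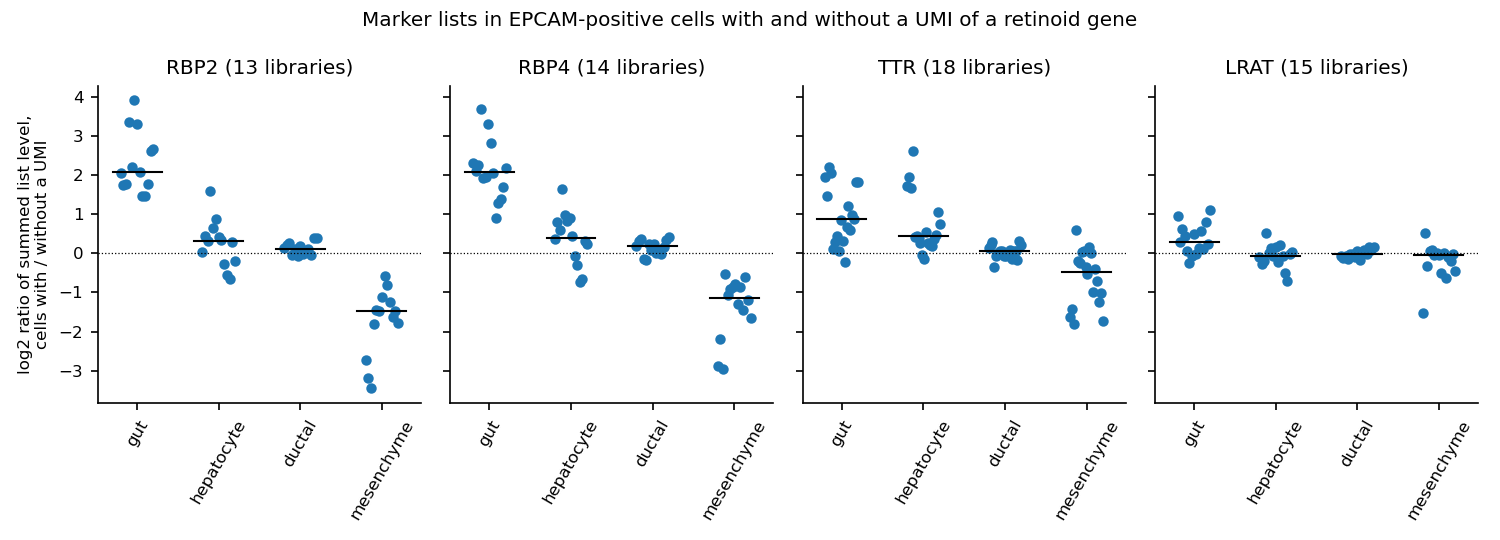
Log2 ratio (vertical axis) of 4 summed marker lists (gut epithelial, hepatocyte, ductal and mesenchymal) in EPCAM-positive cells with a UMI of RBP2, RBP4, TTR or LRAT over those without, 1 point per library and a bar at the median. For RBP2 and RBP4 the gut epithelial points all lie above 0, and for LRAT the points of most lists straddle 0.

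The promoters of RBP4, RBP2 and DHRS9, all of which rose with OA, are shown because each holds the letters TATAAA, in capitals, on the strand of the gene within 25 to 50 bases before a start site. The windows are the 250 bases before a start in RefSeq (GRCh38.p14), 5′ to 3′ on the strand of the gene: chr10:93601236-93601485 (minus), chr3:139476517-139476766 (minus) and chr2:169066827-169067076 (plus).
RBP4: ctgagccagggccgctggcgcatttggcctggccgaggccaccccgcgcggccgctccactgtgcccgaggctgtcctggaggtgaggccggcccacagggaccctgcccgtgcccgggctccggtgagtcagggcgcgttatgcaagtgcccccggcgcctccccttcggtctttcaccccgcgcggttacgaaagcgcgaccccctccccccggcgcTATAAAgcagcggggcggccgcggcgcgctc
RBP2: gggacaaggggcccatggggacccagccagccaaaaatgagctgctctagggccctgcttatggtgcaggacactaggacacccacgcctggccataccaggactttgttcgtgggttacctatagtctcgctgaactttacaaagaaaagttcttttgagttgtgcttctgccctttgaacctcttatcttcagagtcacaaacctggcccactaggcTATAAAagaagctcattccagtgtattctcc
DHRS9: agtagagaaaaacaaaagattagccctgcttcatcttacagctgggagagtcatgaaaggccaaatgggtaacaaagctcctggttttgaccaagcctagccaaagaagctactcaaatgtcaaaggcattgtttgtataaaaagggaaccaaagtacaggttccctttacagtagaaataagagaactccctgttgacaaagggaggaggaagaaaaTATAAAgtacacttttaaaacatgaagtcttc
The table holds 18 windows of 7 of the 9 genes, several genes with more than 1 start. TATAAA at that place and strand was in 3 of the 18 (16.7%) and in 2.45% of all 35116 windows, and on either strand anywhere in the 250 bases it was in 10.7% of all windows. This motif and place were chosen after the windows had been read, and a match in letters does not show a working element.

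The letters of a retinoic acid response element of the DR5 kind were searched on both strands as a pair of hexamers in the same direction with NNNNN between them, each hexamer being AGGTCA or AGTTCA or GGGTCA or GGTTCA. They were in 0 of the 18 windows and in 0.074% of all windows, and no match overlapped TATAAA. As a check of the search, it found the pairs of the retinoid target genes RARB (chr3:25428210-25428226, plus strand) and CYP26A1 (chr10:93073803-93073819, minus strand), with the hexamers in capitals.
RARB: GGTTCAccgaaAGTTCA
CYP26A1: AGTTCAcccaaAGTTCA

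LRAT (chr4:154626945-154753120, plus strand), which esterifies retinol for storage, was low throughout, at 0.36 to 10.4 CPM. The TGFB1 experiment held the highest values, 10.4 and 8.07 in the control and 7.06 and 8.95 with TGFB1. ULA day 21 held 3.08, 3.36 and 3.50 and ULA day 34 0.77 and 0.36. The part of the lower share of cells positive for EPCAM alone on day 34 was not tested here either. LRAT fell by 2.68 ± 0.39 over these days (adjusted p = 0.00727). The call was lost without ULA day 21 replicate 3 (adjusted p = 0.0538). No call was made with TGFB1 (0.00 ± 0.35), OA (0.67 ± 0.36, adjusted p = 0.15; 3.10 and 3.46 against 3.06 and 2.08) or PA (-0.08 ± 0.38). The OA change was 1.11 and called (adjusted p = 0.0304) when the 5% of cells with the most UMIs were left out.

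LRAT was higher in EPCAM-positive cells in all 17 libraries that had enough of both kinds. In shaker libraries the former held 2.50 to 11.9 and the latter 0 to 2.43 CPM, higher in the former in 13 of 13 (3.34 ± 0.28, adjusted p = 2.76e-08; 1881 UMIs against 26). In ULA libraries the ranges were 2.62 to 12.2 and 0.10 to 0.34 (5.36 ± 0.36, adjusted p = 0.000455). The gap was 3.28 with cells assigned to the marker with more UMIs. In the ULA fit LRAT passed the filter on low counts only through the EPCAM-positive cells, so the direction of that call was set beforehand. In ULA day 34 replicate 1, which is not in that fit, the 23 EPCAM-positive cells held 0 LRAT UMIs and the 2143 COL1A2/COL3A1-positive cells 32 (0.95 CPM). Thinned to 1000 UMIs, a median of 0.563% of EPCAM-positive cells held an LRAT UMI, and 10 of 24886 COL1A2/COL3A1-positive cells did. The stellate list summed to 108 to 1021 CPM in the collagen-positive cells of shaker libraries and to 14.7 to 152 in EPCAM-positive cells. EPCAM-positive cells with an LRAT UMI had stellate markers higher in 3 of 15 libraries (median ratio 0.83), hepatocyte markers in 6 of 15 (0.96), ductal markers in 5 of 15 (0.98) and gut markers in 12 of 15 (1.21). They too were deeper, with a median of 11775 UMIs against 7311.

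STRA6 (chr15:74179466-74212267, minus strand), the receptor that takes up retinol from RBP4, had the opposite placement between the kinds of cell. It was higher in COL1A2/COL3A1-positive than in EPCAM-positive cells in 13 of 13 shaker libraries (9.72 to 45.2 against 0.36 to 5.43 CPM, -3.00 ± 0.32, adjusted p = 4.62e-07) and in 4 of 4 ULA libraries (16.2 to 43.95 against 4.10 to 10.9, -2.19 ± 0.42, adjusted p = 0.00779). The ULA gap was -0.86 with cells assigned to the marker with more UMIs, and the call was lost without ULA day 21 replicate 2 (adjusted p = 0.0513). Cells positive for both markers, left out of this fit, held 41.6% to 70.9% of the STRA6 UMIs of the ULA libraries and made up 29.8% to 59.7% of their kept cells. The low values thus hold for cells with EPCAM and no collagen UMI, not for all cells with EPCAM. COL1A2/COL3A1-positive cells with a STRA6 UMI had stellate markers higher in 10 of 12 libraries (median ratio 1.15) and mesenchymal markers in 11 of 12 (1.14). The retinal pigment epithelial list was higher in 9 of 12 (1.21), and the macrophage list in 9 of 12 (1.54) at 1.28 against 1.03 CPM. The other lists were higher in 0 (hepatocyte, 0.75), 1 (ductal, 0.75), 3 (endothelial, 0.78), 4 (gut, 0.72), 5 (choroid plexus, 0.93) and 6 (cell cycle, 1.01). The cells with a STRA6 UMI were deeper as well, with a median of 9572 UMIs against 4773.

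In whole libraries STRA6 held 0.76 and 1.34 CPM with OA against 6.59 and 13.6 in the control, and fell by 2.90 ± 0.33 (adjusted p = 2.61e-05). Mesenchymal markers summed to 288 to 343 CPM with OA against 3930 to 6248 in the control, and how much of the fall goes with them was not tested. Within EPCAM-positive cells it fell as well, from 1.92 and 4.92 to 0.36 and 0.68, by 2.41 (adjusted p = 0.00404), a call lost without OA control replicate 2 or OA replicate 1. The COL1A2/COL3A1-positive cells of the OA libraries held 14.2 and 34.3, from 5 and 8 UMIs in 60 and 38 cells, against 23.1 and 29.7 in the control, which overlap. With TGFB1 the libraries held 9.40 and 9.005 against 7.09 and 5.11 (0.81 ± 0.31, adjusted p = 0.074, not called). It was called without the filter on low counts (0.84, adjusted p = 0.0271) and with only the 2 groups in the fit (0.82, adjusted p = 0.048). The ULA groups held the highest values, 29.9, 34.8 and 20.8 on day 21 and 23.1 and 15.3 on day 34 (-0.69 ± 0.27, adjusted p = 0.124). That change was called without ULA day 34 replicate 1 (-1.03, adjusted p = 0.0141) and was -0.42 without replicate 2.

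DHRS3 (chr1:12567910-12618210, minus strand), which reduces retinal back to retinol, was highest in the TGFB1 experiment. It stood at 137 and 112 CPM with TGFB1, 77.5 and 70.9 in the control, 64.2, 45.8 and 50.4 on ULA day 21, and 12.4 to 37.5 in all other libraries. With TGFB1 it rose by 0.95 ± 0.22 (adjusted p = 0.00909), with no overlap. The call was lost without TGFB1 control replicate 1 (adjusted p = 0.0651) or TGFB1 replicate 1. Within EPCAM-positive cells the rise was 1.02 (142 and 121 against 77.7 and 71.9, adjusted p = 0.00141), and it was called without each library in turn. In COL1A2/COL3A1-positive cells the TGFB1 libraries (69.7 and 56.0) and the control (75.3 and 58.8) overlapped, and the difference of the effect between the kinds was 0.77 ± 0.26 (adjusted p = 0.0924). It was called under both other ways of splitting the cells, at 0.74 (adjusted p = 0.0377) with 2 UMIs as the minimum for a positive cell and 0.67 (0.0402) with cells assigned to the marker with more UMIs. Over the ULA days DHRS3 went to 32.9 and 12.4 (-1.36 ± 0.40, adjusted p = 0.0587), a change called without either day 34 library (-2.24 and -0.82), by DESeq2 (0.00597) and without the filter on low counts (0.0224).

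The rise of DHRS3 with OA, 0.58 ± 0.22 (37.5 and 33.4 against 31.2 and 28.5, adjusted p = 0.0484), was at the edge of the threshold. It was lost on leaving out any of the 4 libraries (adjusted p of 0.0678 to 0.281) and with scaling to total UMIs (0.25, adjusted p = 0.351). Within EPCAM-positive cells DHRS3 was 38.3 and 34.1 against 38.9 and 38.9 (0.13, adjusted p = 0.617), both OA libraries below the control. EPCAM-positive cells were higher than COL1A2/COL3A1-positive cells in 13 of 13 shaker libraries (1.49 ± 0.24, adjusted p = 5.04e-05) and 4 of 4 ULA libraries (1.24 ± 0.08, adjusted p = 0.000437; 0.63 with cells assigned to the marker with more UMIs). On ULA day 21 the cells positive for both markers held more than either kind, 98.1, 81.4 and 75.9 against 42.2, 38.9 and 38.4 in EPCAM-positive cells.

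DHRS9 (chr2:169064789-169096167, plus strand), a retinol dehydrogenase, was low without OA. It stood at 79.1 and 54.8 CPM with OA and at 2.75 and 1.79 in the OA control, and at 0 to 1.92 in the other 15 libraries. The rise was 5.20 ± 0.40 (adjusted p = 1.7e-06) in whole libraries and 4.90 within EPCAM-positive cells (82.1 and 56.7 against 3.18 and 2.12). After thinning to 1000 UMIs, 5.35% and 3.41% of the EPCAM-positive OA cells held a DHRS9 UMI. In the TGFB1 experiment there were 0 and 3 UMIs in the control libraries and 1 in each treated library, which allows no fold. With PA the levels were 1.01 and 1.92 against 0.15 and 0.62, and the change of 1.64 ± 0.49 was not called (adjusted p = 0.834). It ran from 1.04 without PA replicate 2 to 3.37 without PA control replicate 2, and was called without the filter on low counts (adjusted p = 0.00317). The ULA change of -1.36 ± 0.67 was not called either (0.09 and 0.19 on day 34 against 0.29, 0.14 and 0.58, adjusted p = 0.201). In ULA organoids the EPCAM-positive cells of the 4 libraries held 56 DHRS9 UMIs and the COL1A2/COL3A1-positive cells 2 (0.7 to 1.2 against 0 to 0.05 CPM). DHRS9 passed the filter on low counts there only through the EPCAM-positive cells. The edgeR test was thus open to a difference in that direction only, and its adjusted p of 0.0023 adds no support. Under the stricter cell filter and without the deepest cells DHRS9 did not pass the filter on low counts and was not tested.

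RDH10, which oxidises retinol to retinal, varied least over the groups, from a mean of 16.9 CPM on ULA day 21 to 84.3 with OA, a ratio of 4.98. The OA libraries held 92.7 and 75.9 against 30.3 and 24.7 in the control, and RDH10 rose by 1.95 ± 0.31 (adjusted p = 0.000288). Within EPCAM-positive cells the rise was 2.08 (96.2 and 77.9 against 25.2 and 23.2, adjusted p = 0.000206). With TGFB1 the levels of 33.8 and 28.6 against 28.7 and 18.3 were not called apart (0.64 ± 0.31, adjusted p = 0.154; 0.66, adjusted p = 0.0399, without the filter on low counts). The effect of TGFB1 differed between the kinds of cell by 1.34 ± 0.35 (adjusted p = 0.0213): EPCAM-positive cells held 32.4 and 30.3 against 26.9 and 17.3, and COL1A2/COL3A1-positive cells 34.1 and 20.1 against 60.5 and 40.5. That call was lost without TGFB1 control replicate 2 (adjusted p = 0.145) or TGFB1 replicate 2 (0.191), and with cells assigned to the marker with more UMIs (1.39, adjusted p = 0.0664). Over the ULA days RDH10 held 39.1 and 17.3 against 16.1, 17.8 and 16.9 (0.61 ± 0.32, adjusted p = 0.22). The change was -0.10 without ULA day 34 replicate 1 and 1.08 (adjusted p = 0.000623) without replicate 2. RDH10 was the one of the tested genes not called between the kinds of cell in either system, at -0.20 ± 0.23 in shaker and 0.26 ± 0.24 in ULA libraries. The ULA gap was called without ULA day 34 replicate 2 (0.46, adjusted p = 0.00909).

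ALDH1A1 (chr9:72900671-73080442, minus strand), which oxidises retinal to retinoic acid, fell in 2 of the comparisons. With TGFB1 it was at 16.8 and 16.7 CPM against 107 and 88.9 in the control, and fell by 2.34 ± 0.40 (adjusted p = 0.00122). Within EPCAM-positive cells it fell by 2.21 (19.1 and 19.1 against 109 and 95.2, adjusted p = 0.000655). Without each library in turn the whole-library call was kept (adjusted p of 0.00382 to 0.0199). Over the ULA days it fell by 2.40 ± 0.31 (11.5 and 12.6 against 55.7, 40.4 and 78.5, adjusted p = 0.0047). Within COL1A2/COL3A1-positive cells of ULA organoids ALDH1A1 went the other way, 20.1 and 6.49 on day 34 against 2.47, 4.12 and 3.13 (1.92, adjusted p = 0.0237), and STRA6 fell by 0.94 (26.6 and 16.2 against 42.0, 43.95 and 28.1, adjusted p = 0.0484). Both calls were lost without any 1 of the day 21 libraries, and that of STRA6 also without ULA day 34 replicate 2 (adjusted p = 0.0689). The ALDH1A1 change was 0.83 without ULA day 34 replicate 1 and 0.50 (adjusted p = 0.265) with cells assigned to the marker with more UMIs.

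With OA, ALDH1A1 stood at 634 and 466 CPM against 367 and 187 in the control and rose by 1.30 ± 0.39 (adjusted p = 0.0156). The 2 control libraries differ, and the value was 1.98 without OA control replicate 1 and 0.84 (adjusted p = 0.154) without replicate 2, and the call was also lost without OA replicate 1 (0.109). Within EPCAM-positive cells the levels were 661 and 479 against 483 and 269, which overlap, and the change of 0.81 was not called (adjusted p = 0.086). It was 1.44 and called without OA control replicate 1 (adjusted p = 0.0194) and 0.40 without replicate 2. EPCAM-positive cells were higher than COL1A2/COL3A1-positive cells in 13 of 13 shaker libraries (2.72 ± 0.32, adjusted p = 1.38e-06) and 4 of 4 ULA libraries (5.25 ± 0.66, adjusted p = 0.00226).

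**Figure D5:**
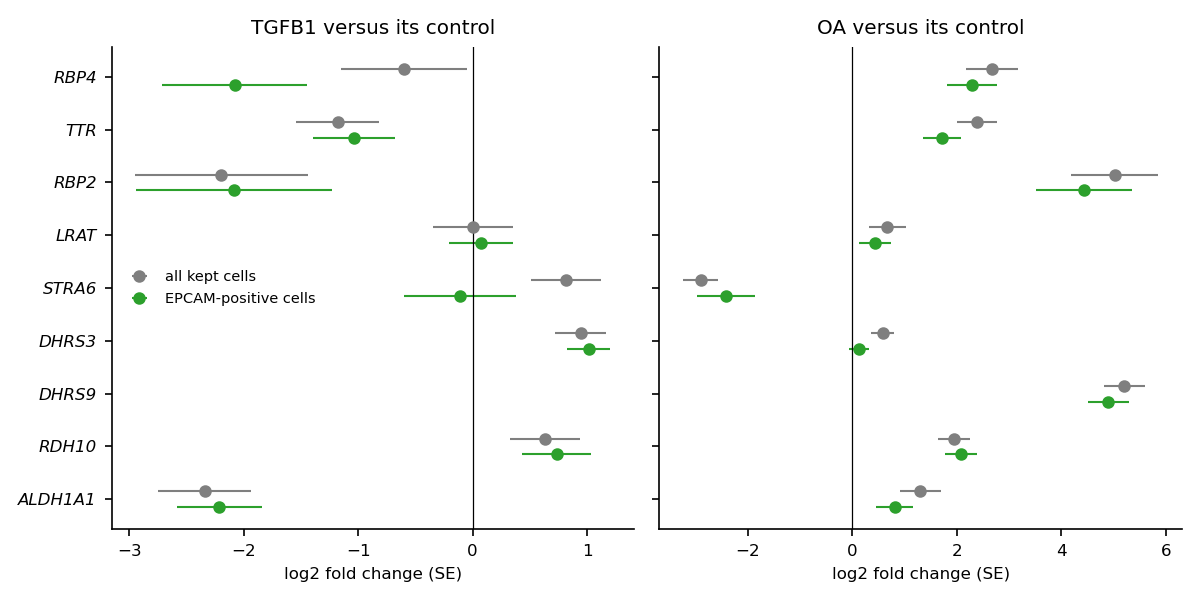
Log2 fold change with its standard error (horizontal axis) with TGFB1 and with OA, in all kept cells and in EPCAM-positive cells. DHRS3 with OA lies at 0.58 in all kept cells and at 0.13 within EPCAM-positive cells, and the RBP2 points with OA lie at 5.02 and 4.43.

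With cells assigned to the marker with more UMIs, the log2 change with OA in EPCAM-positive cells minus that in COL1A2/COL3A1-positive cells was 4.07 ± 0.42 for ALDH1A1 (adjusted p = 5e-06), 3.83 ± 0.39 for TTR, 3.70 ± 0.47 for RDH10, 5.46 ± 0.71 for DHRS9 and 3.02 ± 0.55 for RBP4 (adjusted p = 0.00087). Such a difference is not the size of a rise. ALDH1A1 under that assignment changed by a log2 of 0.74 in EPCAM-positive cells, which was not called (adjusted p = 0.0946), and fell by 3.18 in COL1A2/COL3A1-positive cells (adjusted p = 0.000843). TTR rose by 1.82 in the former and fell by 1.88 in the latter (adjusted p = 0.00221 and 0.00617). These were the 2 of 8 tested genes called in COL1A2/COL3A1-positive cells, where 16.1% of all genes were. Over the ULA days the same subtraction gave -2.68 ± 0.39 for ALDH1A1, -2.65 ± 0.22 for RBP4 and 0.94 ± 0.18 for STRA6 (adjusted p = 0.0132).

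Of 41 further genes of the pathway, 34 could be tested in the shaker fits. With TGFB1 2 rose and 10 fell (22.2% of all genes were called), with OA 4 rose and 11 fell (43.3% of all genes), and 0 were called with PA (0.0465%) or between the OA control and untreated organoids (0.573%). Of the 14 tested enzymes that oxidise or reduce retinoids, 7 fell with TGFB1 and 1 rose, and with OA 4 fell and 3 rose. Of the 7 binding and uptake genes 1 rose and 1 fell with TGFB1 and 3 fell with OA. Of the 6 genes of ester storage and carotenoid cleavage 1 fell with TGFB1, and with OA 2 fell and 1 rose. Of the 5 tested receptors 1 fell with TGFB1 and 2 with OA, and of the 2 tested clearance enzymes 0 were called. The alcohol dehydrogenase ADH1C went from 75.9 and 86.7 CPM in the control to 3.98 and 3.67 with TGFB1 (-4.22 ± 0.40, adjusted p = 1.54e-05). Its near-identical paralogs ADH1A and ADH1B can share reads with it, so this value is uncertain as to the gene. Of the other enzymes that make retinoic acid, ALDH1A2 fell by 3.21 (1.45 and 0.77 against 16.1 and 8.42) while ALDH1A3 rose by 2.94 (14.8 and 16.1 against 2.53 and 2.12). The esterase CES1 fell by 2.44 (2.25 and 2.68 against 17.1 and 13.8).

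With OA the intracellular retinoic acid binders fell: CRABP1 from 13.1 and 18.8 CPM in the control to 0.17 and 0.12 (-6.44 ± 0.62, adjusted p = 7.38e-06), and CRABP2 from 35.7 and 94.5 to 6.92 and 7.57 (-2.79 ± 0.50, adjusted p = 0.000648). CRABP1 and CRABP2 were higher in COL1A2/COL3A1-positive than in EPCAM-positive cells of shaker libraries (-7.01 ± 0.35 and -3.29 ± 0.35, EPCAM minus collagen). COL1A2/COL3A1-positive cells made up under 2% of the OA libraries, and the part of that share in the falls was not tested. DGAT1, which can esterify retinol, rose by 1.99 (194 and 147 against 60.6 and 47.1), and ALDH1A2 by 1.69 (33.3 and 57.2 against 16.1 and 19.4). Between the kinds of cell in shaker libraries 11 of 25 tested pathway genes were higher in EPCAM-positive cells and 9 lower (62.7% of all genes were called), with ADH1C at 4.04 and the retinol dehydrogenase RDH5 at 2.93 above. In ULA libraries 12 of 27 were higher and 11 lower (57.4% of all genes), with the scavenger receptor SCARB1 at 2.20, CRABP1 at -3.26, CRABP2 at -3.62 and the carotenoid-cleaving enzyme BCO2 at -3.19. CRABP2 there was -1.18 with cells assigned to the marker with more UMIs and was lost without ULA day 21 replicate 2 or 3 (adjusted p of 0.0552 and 0.0504), and BCO2 was lost without any of the day 21 libraries (0.107 to 0.112).

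Over the ULA days 8 of 35 tested pathway genes rose (3 of 14 enzymes of oxidation and reduction, 2 of 7 binding and uptake genes, 1 of 7 storage genes, 1 of 6 receptors and 1 clearance enzyme) and 4 fell (2 binding and 2 storage genes), against 17.5% of all genes called. CRABP1 rose by 2.02 (124 and 70.2 CPM against 19.8, 30.9 and 15.6), the retinol dehydrogenase family member RDH13 by 1.88 (38.0 and 19.7 against 8.36, 6.01 and 7.30) and ALDH1A2 by 1.34 (50.5 and 30.2 against 13.1, 17.2 and 13.5). The endocytic receptor LRP2 fell by 1.92 (7.24 and 4.33 against 21.9, 15.9 and 22.3). All 4 calls were lost without ULA day 21 replicate 3 (adjusted p of 0.054 to 0.0841), and those of CRABP1 and ALDH1A2 also without replicate 1 (0.0599 and 0.0752).

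Over the 14 shaker libraries, the gene whose log2(CPM + 1) followed a retinoid gene most closely was sought among 8736 genes. For RBP2 it was APOB (Pearson r = 0.99, and 0.978 over the 12 libraries without OA), for RBP4 C19orf33 (0.985 and 0.978), and for DHRS3 BRI3 (0.96 and 0.97). For TTR it was KISS1 (0.93 and 0.932), for RDH10 SLC20A1 (0.969 and 0.914), for DHRS9 ACSL5 (0.976 and 0.922) and for STRA6 NFIC (0.964 and 0.81). LRAT was left out because its highest shaker group mean, 9.26 CPM in the TGFB1 control, was under the minimum of 10. Among the 9 genes themselves, RBP2 ran closest to RBP4 (0.926) and ALDH1A1 (0.922). These libraries share batches, depth and cell makeup, so the correlations are descriptions without a test.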

How the data were processed

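The authors deposited each library as a matrix of UMI counts per gene and cell barcode, whole numbers with no normalization. Cell Ranger wrote the matrices, per the file headers, in version 6.0.2 for OA, its control and untreated organoids and 3.0.2 for all others. Cell Ranger 3.0.2, bcl2fastq, Scanpy and GRCh38 are named, per the submitters' processing notes. ULA matrices list 58721 genes, TGFB1 and PA matrices 33538, and OA and untreated matrices 36601, and the 32703 shared identifiers were used for levels. Per the labels' protocols, dissociation differed: trypsin was applied 10 minutes longer, after 1 additional wash, to shaker and day 34 ULA organoids than to those of day 21, so day and dissociation cannot be told apart in the ULA comparison.

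Cells with 500 or more genes and no more than 20% of UMIs from mitochondrial genes were kept, and counts were summed per library, the unit of replication. No doublet caller was run, and an alternative left out the 5% of cells with the most UMIs. Groups come from the sample titles. Sums were tested with edgeR 4.0.16 in R 4.3.3 (TMM, filterByExpr, quasi-likelihood test, Benjamini-Hochberg over all genes tested), over 14 shaker libraries in 7 groups and apart over 5 ULA libraries. Kinds of cell were compared with the library as a block, where a library held at least 50 cells of each. DESeq2 1.42.0, other scalings and filters, a replicate block and leaving out each library were alternatives. Fits within a kind of cell, and the assignment of each cell to the marker with more UMIs, were added after the data had been seen.

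The 9 genes and all lists (41 further pathway genes in 5 lists; markers of hepatocytes, gut epithelium, ductal, stellate, mesenchymal, endothelial, macrophage, retinal pigment epithelial and choroid plexus cells and of the cell cycle) were chosen with earlier results of these data known. All 9 genes are reported, singly or within a range, in each comparison of whole libraries. Of the pathway lists, up to 4 genes with the largest called change and a mean of at least 10 CPM in a group are named. For likeness, the gene with the highest correlation is named, and that of ALDH1A1 is not reported here. Not every member of a list was measurable in each fit. On simulated counts the OA comparison recovered 31% of 2-fold and 100% of 4-fold changes, the ULA comparison 40% and 100%, with 3 and 10 false calls.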

Additional observations from a re-analysis of the deposited data

Results flagged for a closer look

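For 4 results the effect of a condition differed between EPCAM-positive and COL1A2/COL3A1-positive cells in a test of the difference itself. With TGFB1 the log2 change of RBP4 was lower in EPCAM-positive cells by -5.21, that of TTR higher by 2.6 and that of RDH10 higher by 1.34. Between the OA control and untreated shaker organoids the change of RBP2 was higher in EPCAM-positive cells by 2.5. The COL1A2/COL3A1-positive cells of the TGFB1 control numbered 439 and 333, with 1 and 2 RBP4 UMIs. Each of the 4 calls was lost under at least 1 other choice: a TGFB1 or TGFB1 control library left out for RBP4, TTR and RDH10, and the assignment of cells to the marker with more UMIs for TTR, RDH10 and RBP2.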

How the results depend on the processing

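Counts of called genes moved with the processing, and not only in the comparisons with few calls. Without the filter on low counts, 6 of the 9 genes were called with TGFB1 (3 with the filter; 5255 of all 27796 genes), 1 with PA (DHRS9), 1 between the OA control and untreated organoids (RBP2), and 5 over the ULA days (3 with it; 3705 of 26862), where DESeq2 also called 5 (4718 of 18763). Leaving out each library gave 1 to 7 of the 9 over the ULA days. Over all genes, PA (9 called) gave 51 with DESeq2, 17 with total UMI scaling, 162 with no filter, 14 without the deepest cells, 16 with only its 2 groups and 0 to 20 without each library. The OA control against untreated organoids (111) gave 701, 255 and 523 with the first 3 of these, 0 with only the 2 groups and 0 to 164 without each library. Without each library TGFB1 (4293) gave 1704 to 5552, OA (8375) 5164 to 6564, the ULA days (3286) 669 to 6699 and the ULA kinds of cell (8847) 4974 to 11700. The effect of TGFB1 differed between kinds of cell for 1 to 2 of the 9 genes without each library, that of PA for 1 with 2 UMIs as the minimum for a positive cell, and the OA control for 0 with cells assigned to the marker with more UMIs and 1 to 3 without each library. The deviations of same-numbered libraries from their group means correlated by -0.645 to 0.159, with 1 value per comparison. Such values cannot decide whether the numbers pair libraries. They were -0.53 for TGFB1 and -0.645 for the OA control against untreated organoids, where libraries of opposite number deviated together. With a replicate block, 3 of the 9 genes were called with TGFB1, 7 with OA and 0 in the other comparisons, and over all genes 3143 with TGFB1, 7243 with OA, 4 with PA, 0 between the OA control and untreated organoids and 0 over the ULA days. With the numbers crossed in the replicate block, TGFB1 gave 4 of the 9 genes and 4150 genes, and the OA control 0 and 28. TTR within COL1A2/COL3A1-positive ULA cells turned from 1.60 to -3.53 without ULA day 34 replicate 2, which held 13.0 CPM against 1.16 to 2.97 on day 21, and was 2.58 without replicate 1. The causes were not tested. Of the log2 changes of single genes under all alternatives, 1255 kept their direction and side of the threshold, 84 changed sign without being called in either fit, 72 lost the call, 44 gained it and 1 reversed with a call. Among the 84 are RBP4 with TGFB1 without TGFB1 control replicate 2 (0.21), and RBP4 (-0.17) and RDH10 (-0.23) with PA without PA replicate 2. Low UMI numbers limit DHRS9 outside OA and LRAT in collagen-positive cells.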
